A study of Mus musculus with 8 samples.

Results

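The burning of fatty acids in the liver was followed here through 28 genes of fatty acid oxidation, ketone body metabolism and the response to PPARA, chosen by symbol from the 55450 genes of the deposited tables. All 28 were present, and all 28 had enough counts to be tested. RNA came from 8 mouse livers in 2 groups of 4. The controls carried floxed Cebpa alleles and no Cre (Cebpa fl/fl, Cre-), and the knockouts carried Cre and lacked Cebpa in hepatocytes (CebpaΔHep, Cre+). For all 8 livers, mice at 10 weeks of age were kept for 5 days on liquid control food. The liquid diet that followed for 4 weeks held 5% ethanol by volume. Every liver had ethanol, so the values compare genotypes and not diets. The groups were matched for body weight. Neither the promoter that drives Cre nor the strain is stated in the labels. The comparison asks how the genes of fat oxidation differ when hepatocytes lack C/EBP alpha, a transcription factor of the differentiated liver, under ethanol feeding.

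Fatty acids that enter a hepatocyte are joined to coenzyme A, carried into mitochondria as carnitine esters and shortened by cycles of beta oxidation, and much of the acetyl-CoA leaves the liver as ketone bodies. Very long and branched acids are shortened first in peroxisomes, and omega hydroxylation by CYP4A enzymes opens a side route. PPARA is a nuclear receptor activated by fatty acids. It binds DNA with RXR at direct repeats of a short half-site spaced by a single base and drives many of these genes in the fasted rodent liver.

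The libraries held 21048350.0 to 28148744 expected counts, and 1 count was worth 0.0341 to 0.0485 CPM (the count as a share of the library, with library sizes scaled by TMM factors). Cebpa, the deleted gene, was at 319.7, 263, 269 and 320.1 CPM in control livers 1 to 4 and 5.43, 9.25, 7.31 and 6.24 CPM in knockout livers 1 to 4, so every liver followed its label (log2 fold change -5.37, SE 0.18, edgeR adjusted p = 4.78e-07). The 10 hepatocyte marker genes summed to 119197 to 144164 CPM in controls and 129437 to 139047 CPM in knockouts. None of the 10 was called by edgeR or DESeq2, which called 2.06% and 5.54% of the genes they tested. An unadjusted edgeR p below 0.05 was found for 3 (1 higher and 2 lower), or 30.0%, against 18.5% of all tested genes. Log2 fold changes were negative for 7 of the 10, and the median was -0.22. Control 2 and knockout 4 stood apart, at mean absolute log2 differences of 0.341 and 0.298 from the other livers of their group, against 0.231 to 0.263 for the remaining 6. The tested cholangiocyte, macrophage, stellate and endothelial markers all had positive log2 fold changes. Of 7 tested cholangiocyte markers edgeR called 3 higher, against 0.849% of all tested genes, and the median log2 fold change was 0.82. The 8 listed summed to 65.8 to 104 CPM in controls and 161 to 410.2 CPM in knockouts. Of 9 macrophage, 8 stellate and 7 endothelial markers edgeR called none, against 2.06% of all tested genes. DESeq2 called 1, 0 and 0 of these markers, against 5.54% of the genes it tested. An unadjusted edgeR p below 0.05 was found for 3, 3 and 2 of them, all higher, or 33.3%, 37.5% and 28.6%. The share over all tested genes was 18.5%. Median log2 fold changes of these macrophage, stellate and endothelial markers were 0.55, 0.33 and 0.29. Their summed levels were 144 to 307, 139 to 271 and 121 to 154 CPM in controls, and 235 to 392, 235 to 462 and 144 to 197 CPM in knockouts. Adipoq, Plin1, Lep and Retn of adipocytes, Mb and Tnnt3 of muscle and Prss2, Pnlip, Ctrb1 and Cel of the pancreas were listed at 0 in all 8 livers. The 6 adipocyte markers summed to 0 to 2.51 CPM in controls and 5.07 to 15.5 CPM in knockouts, and Cfd, the 1 tested, was higher in every knockout (log2 fold change 2.65, edgeR adjusted p = 0.105). The 6 muscle markers summed to 1.49 to 2.77 CPM in controls and 1.62 to 2.18 CPM in knockouts, and the 6 pancreas markers to 8.71 to 22.4 and 11.5 to 19.9 CPM. The part of these markers in the values below was not tested. In whole liver, a change in the number of cells of a type and a change in RNA per cell cannot be told apart.

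None of the 28 fat oxidation genes passed edgeR's test between the genotypes, against 2.06% of the 13303 genes tested (0.849% higher and 1.21% lower in the knockouts). An unadjusted p below 0.05 was found for 5 of the 28, Acsl1 and Hadha with lower and Ehhadh, Cyp4a10 and Vnn1 with higher values in the knockouts, which is 17.9% against 18.5% of all tested genes. DESeq2 called 2, Hadha and Vnn1, where it called 5.54% of the genes it tested. The limma-trend fit on log2(TPM + 1) called none of the 28 and 237 of all tested genes. In that fit 8 of the 28 had an unadjusted p below 0.05, and the median log2 fold change over all tested genes was 0.091. The share of all tested genes at that p is not given here, so the 8 cannot be read against it. Of the 28 log2 fold changes from edgeR 17 were positive and 11 negative, with a median of 0.017, and the edgeR median over all tested genes was 0.0036. The median size without regard to sign was 0.15 for the 28 and 0.17 for all tested genes. The 95% interval of the difference lay within a 1.5-fold change either way for 19 of the 28 genes, or 67.9%. The same held for 55.5% of all tested genes and for 80.5% of the 5717 genes with a mean level at or above that of Pdk4, the lowest of the 28 genes but Fgf21. The intervals of the other 9 genes (Fgf21, Acsl1, Ehhadh, Acot1, Acot2, Cyp4a10, Cyp4a14, Pdk4 and Vnn1) reached past 1.5-fold.

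**Figure D1:**
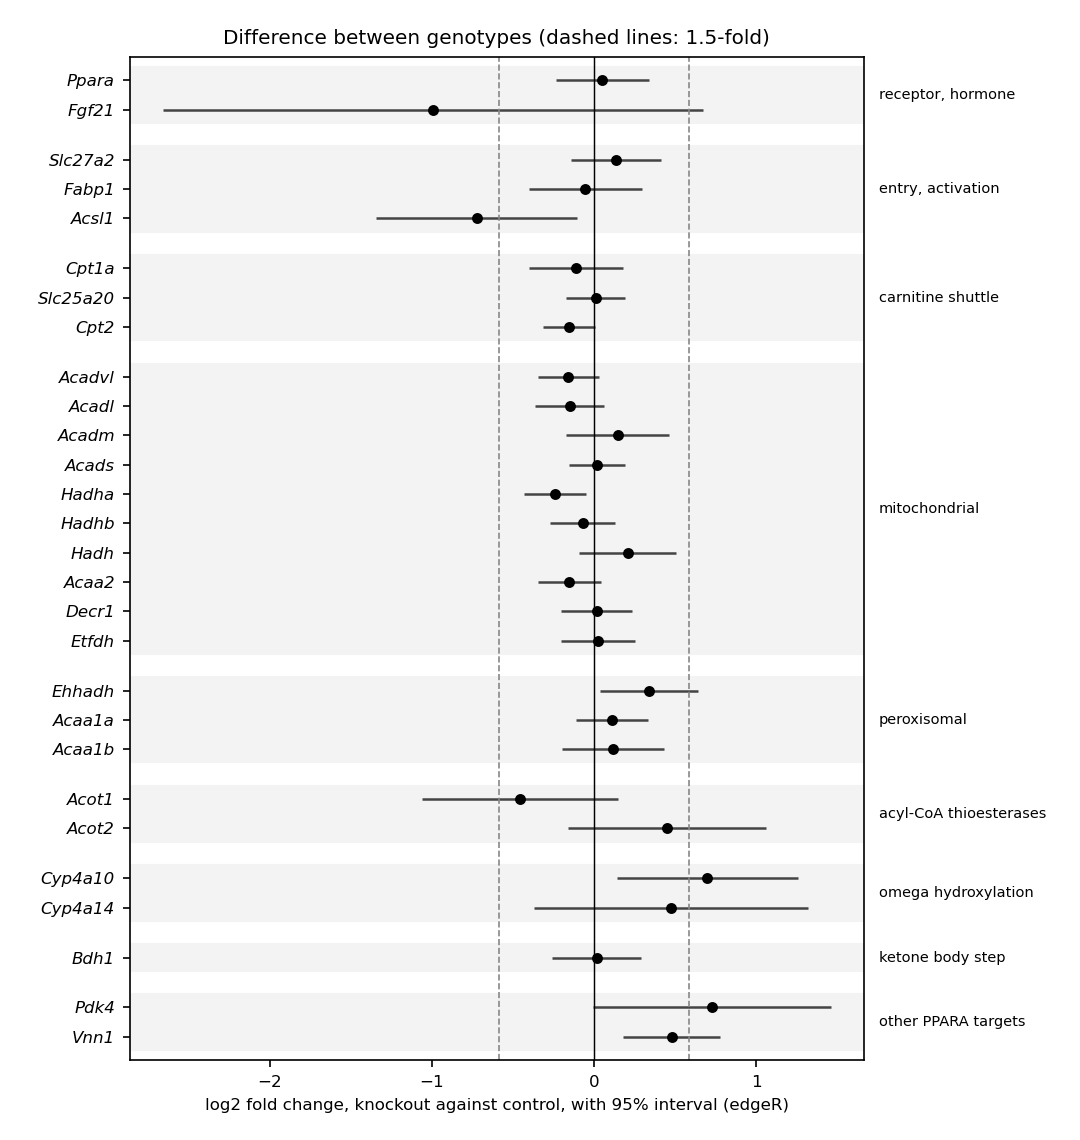
Log2 fold change of each of the 28 genes, knockout against control, with its 95% interval from edgeR (n = 4 livers per group). The x axis is in log2 units, the rows are grouped by the role named at the right, and the dashed lines mark 1.5-fold. The 10 mitochondrial beta oxidation genes sit between -0.24 and 0.21, with every interval inside the dashed lines, while Fgf21, Cyp4a14 and Pdk4 have the widest intervals of the 28.

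**Figure D2:**
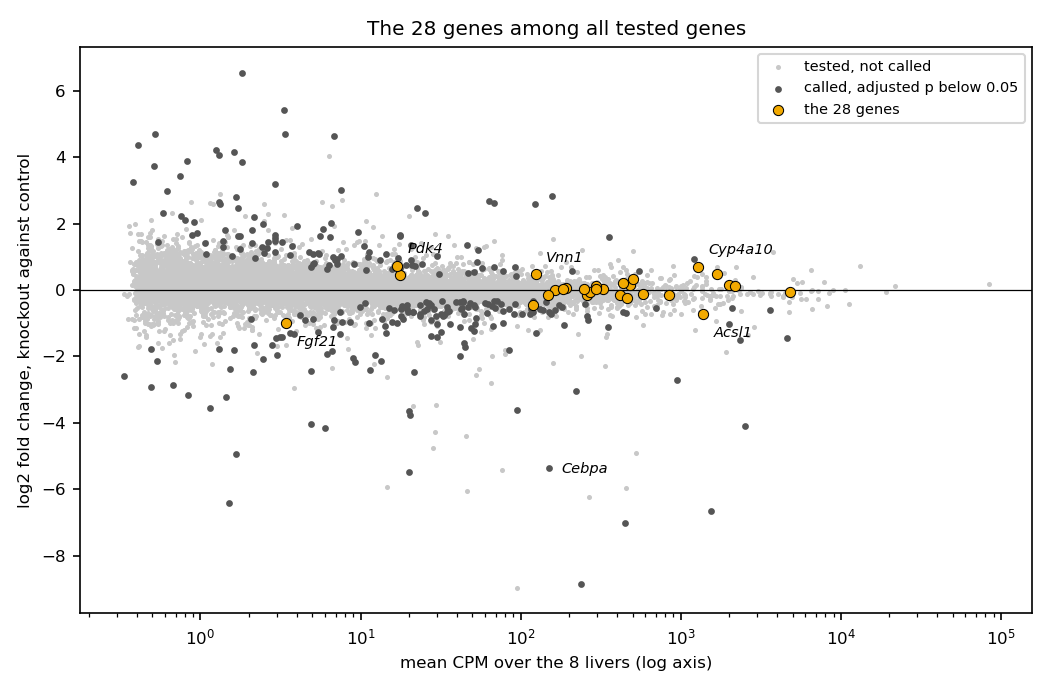
Log2 fold change, knockout against control, plotted on the mean CPM over the 8 livers (log axis) for the 13303 genes tested. Light points are genes not called, dark points the 274 genes with an edgeR adjusted p below 0.05, and large points the 28 fat oxidation genes, which lie between -0.99 (Fgf21) and 0.73 (Pdk4).

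The levels of the 28 genes spanned more than 3 powers of 10 per unit of transcript length. In the authors' TPM, which scale for gene length, the highest was Fabp1 at 16780.5 ± 3045 TPM in controls and 17378 ± 2341 TPM in knockouts (SD, n = 4). Acaa1b, at 1772 ± 299.8 TPM in controls, Slc27a2, at 1211 ± 98.9 TPM, and Acaa2, at 832 ± 25.8 TPM, followed in that order. Cyp4a14, Cyp4a10 and Acsl1 came next at 772 ± 374, 637 ± 242 and 589 ± 160.2 TPM. Cyp4a14 had a spread that took in Acaa2, and the levels of Cyp4a10 and Acsl1 lay within the spread of the gene before. From Acadm, at 351 ± 59.0 TPM, down to Vnn1, at 61.1 ± 11.4 TPM, 18 genes followed closely. Neighbours in that stretch lay within the sum of their SDs, but for Acadvl above Hadha, Hadha above Acaa1a and Cpt2 above Vnn1. Acot2, Fgf21 and Pdk4 were the lowest, at 9.22 ± 2.73, 7.48 ± 2.63 and 4.80 ± 1.54 TPM.

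**Figure D3:**
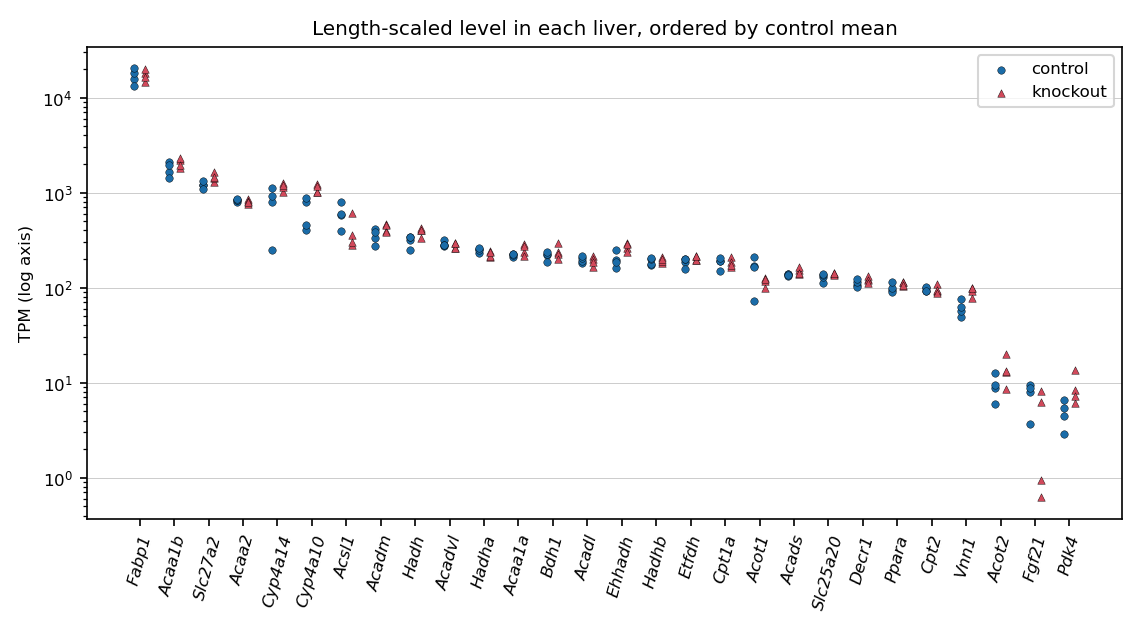
Level of each gene in each liver in TPM (log axis), ordered by the control mean. Circles are the 4 controls and triangles the 4 knockouts. Fabp1 stands alone at the top, and the knockout triangles of Fgf21 fall apart by more than a power of 10.

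Ppara, the receptor, was at 191, 156, 197 and 209.9 CPM in control livers 1 to 4 and 211, 164, 228 and 179 CPM in knockout livers 1 to 4. The groups overlapped, and the interval of the log2 difference ran from -0.23 to 0.34 around 0.051 (edgeR adjusted p = 0.862). Fgf21, a hormone that the mouse liver secretes under PPARA in fasting, was at 6.0, 4.75, 5.26 and 2.25 CPM in control livers 1 to 4 and 3.64, 0.514, 0.365 and 4.53 CPM in knockout livers 1 to 4. Knockouts 2 and 3 were lower than any control, and knockouts 1 and 4 lay within the control range (log2 fold change -0.99, SE 0.72, edgeR adjusted p = 0.504). Fgf21 rested on few reads, 13 and 8 counts in knockouts 2 and 3 and 8 to 133 counts over the 8 livers. Its interval, -2.66 to 0.67, covers both a loss and a gain.

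Of the genes of fatty acid entry and activation, Slc27a2 and Fabp1 overlapped between the genotypes, and Acsl1 had its 3 lowest values in knockouts. Slc27a2, a fatty acid transport protein that is also a very long-chain acyl-CoA synthetase, ranged over 1674 to 2121 CPM in controls and 1910.3 to 2479 CPM in knockouts (log2 fold change 0.14, SE 0.12, edgeR adjusted p = 0.593). Acsl1, the long-chain acyl-CoA synthetase that activates fatty acids, was at 1749, 1124, 1703 and 2326 CPM in control livers 1 to 4 and 783, 914, 855 and 1627 CPM in knockout livers 1 to 4. Knockouts 1, 2 and 3 were below every control and knockout 4 was above control 2, so the groups overlapped (log2 fold change -0.72, SE 0.28, edgeR adjusted p = 0.207). Its interval ran from -1.34 to -0.10. Acsl1 is the 1 gene of the list whose call turned on the livers that stood apart. Without knockout 4 the log2 fold change was -1.02 (edgeR adjusted p = 0.0441), without control 2 it was -0.88 (adjusted p = 0.159), and without both it was -1.18 (adjusted p = 0.00440). The gene lies at chr8:46471037-46536051 on mm10 and overlaps Gm45244 on the opposite strand, whose reads cannot be told apart from its own if the counting ignored strand. Slc27a2, Acadvl, Acadl, Hadha, Etfdh, Ehhadh, Acaa1a, Acaa1b and Bdh1 also overlap a gene on the opposite strand, as does Cebpa.

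Fabp1, the liver fatty acid binding protein and a standard PPARA target in rodents, was at 4742, 3729, 5147 and 5964 CPM in control livers 1 to 4 and 5081, 5202, 4111 and 4446 CPM in knockout livers 1 to 4, with the groups overlapping (log2 fold change -0.056, SE 0.16, edgeR adjusted p = 0.883); the sign of this small difference turned under library size alone and on TPM. Its promoter is shown because it was the 1 promoter of the list with a full match to the repeat that PPARA and RXR bind. The line gives the plus strand, the strand of the gene, at chr6:71199752-71199826 of RefSeq's GRCm38.p6, and the capitals mark the match, which reads as the repeat on the opposite strand.
Fabp1: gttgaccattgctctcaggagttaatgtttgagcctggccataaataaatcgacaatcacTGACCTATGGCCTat
The match lies 67 to 55 bases before the start site in RefSeq. RefSeq promoter windows, from 250 bases before to 50 after a start site, were matched for 23 of the 28 genes, in 25 windows; Acaa2, Cyp4a10, Cyp4a14, Decr1 and Vnn1 had no entry. The repeat was searched on both strands as AGGNCA followed, after any single base, by AGGNCA again, where N is any base. It was in 125 of all 32851 windows, or 0.381%. The half-site AGGTCA, which the repeat can contain, was in windows of 5 of the 23 genes (Acadm, Acadvl, Cpt1a, Fabp1 and Slc27a2), or 21.7%, and in 16.3% of all windows. The C/EBP type site TTGCNNAA was in windows of 4 genes (Acaa1a, Acads, Acot1 and Fabp1), or 17.4%, and in 10.8% of all windows. These are matches of letters within short windows and were not tested as binding sites.

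For all 3 genes of the carnitine shuttle the interval of the difference lay within 1.5-fold either way, and none was called. Cpt1a, the malonyl-CoA sensitive step that commits long-chain acids to mitochondria, was at 645, 476, 599.9 and 684 CPM in control livers 1 to 4 and 501, 610.3, 597 and 517 CPM in knockout livers 1 to 4 (log2 fold change -0.11, SE 0.13, edgeR adjusted p = 0.679). The knockouts lay within the control range. Slc25a20, the carnitine acylcarnitine translocase of the inner membrane, was at 148, 159, 170.2 and 180.3 CPM in control livers 1 to 4 and 167, 162, 166 and 167 CPM in knockout livers 1 to 4, and its 4 knockouts differed among themselves by at most 1.03-fold (log2 fold change 0.0093, SE 0.081, edgeR adjusted p = 0.967). Cpt2, which returns the acyl group to coenzyme A inside mitochondria, was at 156, 149, 165 and 158 CPM in control livers 1 to 4 and 141, 148, 142 and 133 CPM in knockout livers 1 to 4. Every knockout was below every control, by as little as the gap between knockout 2 and control 2, without a call by edgeR (log2 fold change -0.16, SE 0.073, edgeR adjusted p = 0.285).

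The 10 mitochondrial beta oxidation genes had log2 fold changes from -0.24 to 0.21, 5 of them positive and 5 negative. Hadha, the alpha subunit of the trifunctional protein, was at 463, 505, 493 and 532 CPM in control livers 1 to 4 and 399, 435, 422 and 427 CPM in knockout livers 1 to 4. All knockouts were below all controls (log2 fold change -0.24, SE 0.086, edgeR adjusted p = 0.175), and DESeq2 gave an adjusted p of 0.0236. Acadvl, the very long-chain acyl-CoA dehydrogenase, was at 432, 478, 420.1 and 436 CPM in control livers 1 to 4 and 381, 397, 388 and 416 CPM in knockout livers 1 to 4. The groups did not overlap, with knockout 4 just under control 3 (log2 fold change -0.16, SE 0.085, edgeR adjusted p = 0.349). Acaa2, the mitochondrial thiolase, was at 879, 862, 873 and 928 CPM in control livers 1 to 4 and 766, 800.3, 844 and 773 CPM in knockout livers 1 to 4. Its groups did not overlap either (log2 fold change -0.15, SE 0.088, edgeR adjusted p = 0.379). With Cpt2, Hadha, Acadvl and Acaa2 were the 4 of the 28 genes with no overlap between the groups, or 14.3% against 11.5% of all tested genes, and all 4 were lower in the knockouts, as were 5.93% of all tested genes. This separation depended on the TMM scaling, as a comparison added after the values were seen showed. On CPM with library size alone and on TPM all 4 genes overlapped, and Cyp4a10 and Vnn1, both higher in the knockouts, were the 2 without overlap, or 7.14% against 11.7% and 12.6% of all tested genes. In limma-trend on log2(TPM + 1) the log2 fold changes of Cpt2, Hadha, Acadvl and Acaa2 were -0.022, -0.15, -0.049 and -0.044, where the median over all tested genes was 0.091.

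The dehydrogenases of the other chain lengths and the later steps had log2 fold changes of both signs, and none was called. Acadl, for long chains, ranged over 254 to 302 CPM in controls and 219 to 264 CPM in knockouts (log2 fold change -0.15). Acadm, for medium chains, was at 455, 339.9, 523 and 502 CPM in control livers 1 to 4 and 476, 514, 572 and 451 CPM in knockout livers 1 to 4, with control 2 the lowest of the 8 livers (log2 fold change 0.15, SE 0.14, edgeR adjusted p = 0.616). Acads, for short chains, ranged over 175 to 195 CPM in controls and 176 to 196 CPM in knockouts (log2 fold change 0.018, interval -0.16 to 0.19). Hadh, the short-chain hydroxyacyl-CoA dehydrogenase, was at 423, 310.0, 427 and 450.2 CPM in control livers 1 to 4 and 487, 476, 504 and 392 CPM in knockout livers 1 to 4 (log2 fold change 0.21, SE 0.13, edgeR adjusted p = 0.444). Knockouts 1, 2 and 3 were above every control, and knockout 4 was above control 2 only. Decr1, a reductase needed for polyunsaturated acids, ranged over 218 to 278 CPM in controls and 223 to 262 CPM in knockouts (log2 fold change 0.016). Etfdh, which passes electrons from the dehydrogenases to ubiquinone, ranged over 267 to 352 CPM in controls and 322 to 344 CPM in knockouts (log2 fold change 0.023), and control 2 was the lowest of the 8 livers.

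Hadha and Hadhb encode the subunits of a single enzyme complex and are transcribed away from each other. On mm10, GENCODE places Hadha at chr5:30118304-30155162 on the minus strand and Hadhb at chr5:30155248-30184593 on the plus strand. The 85 bases between these annotated starts, chr5:30155163-30155247 on the plus strand, are shown because both genes are read outward from them. They are 69.4% G or C and held no AGGTCA and no TTGCNNAA on either strand; RefSeq places the start of Hadha further inside the gene, at 30154980.
Hadha-Hadhb: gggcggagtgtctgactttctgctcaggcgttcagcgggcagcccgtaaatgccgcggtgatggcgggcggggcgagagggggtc
Hadhb was at 263, 251, 282 and 309 CPM in control livers 1 to 4 and 248, 270.4, 265 and 268 CPM in knockout livers 1 to 4, with the groups overlapping (log2 fold change -0.071, SE 0.090, edgeR adjusted p = 0.707). The ratio of Hadha to Hadhb counts within a liver does not depend on how libraries are scaled. It was 1.76, 2.01, 1.74 and 1.72 in controls 1 to 4 and 1.61, 1.61, 1.59 and 1.59 in knockouts 1 to 4, lower in every knockout than in any control. The difference in the mean log2 ratio was -0.17 (two-sided exact permutation p = 0.0286, the smallest that 70 splits allow). Over the 5 ratios of gene pairs computed, which were chosen after the values were seen, the exact permutation p adjusted by Benjamini-Hochberg was 0.143. A ratio that alone reached the smallest p of 70 splits could not pass this correction. The adjusted value therefore decides nothing about this difference. Hadhb shares 19.7% of its 50-base runs with other annotated transcripts, mostly of Gm13910, and with the counts of Gm13910 and Gm9108 added to Hadhb the ratio was 1.6 to 1.9 in controls and 1.5 in every knockout.

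**Figure D4:**
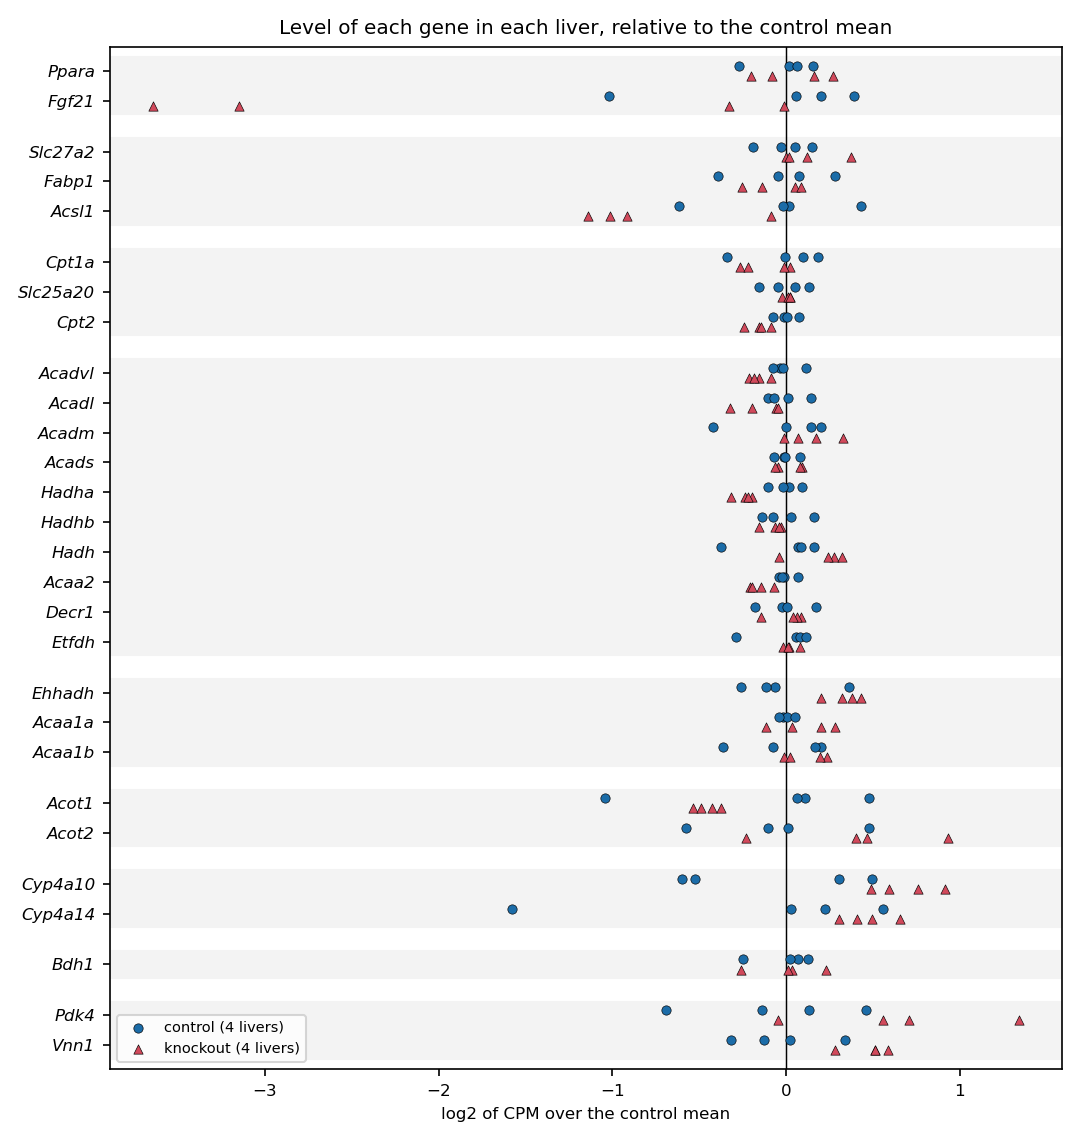
Log2 of each liver's CPM over the control mean of the same gene, for the 28 genes in the order of their roles from receptor to other targets. Circles are the 4 controls and triangles the 4 knockouts, and the vertical line marks the control mean. The knockout triangles of Cpt2, Acadvl, Hadha and Acaa2 lie to the left of all circles of the same gene on this scale, which they did not on TPM or on library size alone, and single control circles lie far to the left for Acot1 and Cyp4a14.

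The peroxisomal genes had positive log2 fold changes, 0.11 to 0.34, and none passed the test. Ehhadh, the peroxisomal bifunctional enzyme, was at 369, 423, 409 and 568 CPM in control livers 1 to 4 and 553, 576, 509 and 596 CPM in knockout livers 1 to 4. Control 4 lay among the knockouts and the other controls below all of them (log2 fold change 0.34, SE 0.14, edgeR adjusted p = 0.223). Acaa1a and Acaa1b encode peroxisomal thiolases close in sequence, with 30.5% of the 50-base runs of Acaa1b also in Acaa1a, so the division of reads between them is uncertain. Acaa1a ranged over 276 to 293 CPM in controls and 262 to 345 CPM in knockouts and Acaa1b over 1637 to 2422 CPM in controls and 2087 to 2484 CPM in knockouts. Their sum, which does not depend on that division, was 2391 ± 365 CPM in controls and 2589 ± 196 CPM in the knockouts (mean ± SD, n = 4, two-sided exact permutation p = 0.400).

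The thioesterase genes Acot1 and Acot2 had log2 fold changes of opposite sign, and neither passed the test. Their enzymes split acyl-CoA back to free acid, Acot1 in the cytosol and Acot2 in mitochondria. Acot1 was at 67.0, 149, 144 and 192 CPM in control livers 1 to 4 and 95.1, 98.2, 106 and 103 CPM in knockout livers 1 to 4. Its knockouts lay close together, between control 1 and the other controls (log2 fold change -0.46, SE 0.26, edgeR adjusted p = 0.399), and without control 1 the log2 fold change was -0.69 (edgeR adjusted p = 0.0286). Acot2 was at 9.97, 13.8, 14.9 and 20.7 CPM in control livers 1 to 4 and 19.7, 28.4, 20.5 and 12.7 CPM in knockout livers 1 to 4, again with overlap (log2 fold change 0.45, SE 0.27, edgeR adjusted p = 0.410). The genes share reads, as 24.5% of the 50-base runs of Acot2 are also in Acot1. The sum of both was 153 ± 56.2 CPM in controls and 121 ± 6.71 CPM in the knockouts (mean ± SD, n = 4, two-sided exact permutation p = 0.429). The ratio of Acot2 to Acot1 was 0.149, 0.0927, 0.104 and 0.108 in controls 1 to 4 and 0.207, 0.289, 0.193 and 0.123 in knockouts 1 to 4, with overlap at knockout 4 (exact permutation p = 0.0571, adjusted p = 0.143). The Acot1 promoter is shown as the 1 window of the list with a pair of C/EBP type matches, in capitals, at chr12:84009339-84009401 on the plus strand, which is the strand of the gene.
Acot1: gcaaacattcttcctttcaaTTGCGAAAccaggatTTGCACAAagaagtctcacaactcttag

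Cyp4a10 and Cyp4a14, which encode omega hydroxylases and are among the genes most sensitive to PPARA activators in mouse liver, had higher means in the knockouts without passing the test. Cyp4a10 was at 646, 683, 1212 and 1381 CPM in control livers 1 to 4 and 1478, 1376, 1847 and 1659.9 CPM in knockout livers 1 to 4. Knockouts 1, 3 and 4 were above every control, and knockout 2 was just below control 4 (log2 fold change 0.70, SE 0.25, edgeR adjusted p = 0.179). Its interval ran from 0.14 to 1.25. Cyp4a14 was at 472, 1436, 1641 and 2073 CPM in control livers 1 to 4 and 1738, 1869, 2219 and 1983 CPM in knockout livers 1 to 4. Control 1 was far below the other livers, and the controls alone spanned 4.4-fold (log2 fold change 0.47, SE 0.37, edgeR adjusted p = 0.531). Without control 1 the log2 fold changes of Cyp4a10 and Cyp4a14 were 0.54 and 0.18 (edgeR adjusted p = 0.280 and 0.590). Their sum was 1118, 2119, 2854 and 3453 CPM in control livers 1 to 4 and 3216, 3245, 4065 and 3643 CPM in knockout livers 1 to 4 (two-sided exact permutation p = 0.0857). Cyp4a10 shares 24.5% and 15.0% of its 50-base runs with Cyp4a32 and Cyp4a31, and Cyp4a14 shares almost none with any gene. A sum of Cyp4a10, Cyp4a31 and Cyp4a32, added after the values were seen, was 1037 ± 374 CPM in controls and 1647 ± 209.6 CPM in the knockouts (mean ± SD, n = 4, exact permutation p = 0.0571). Over the 4 sums the lowest exact permutation p adjusted by Benjamini-Hochberg was 0.171. A sum that alone reached the smallest exact p could not have passed this correction either.

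Bdh1, which interconverts the ketone bodies acetoacetate and hydroxybutyrate, ranged over 246 to 319 CPM in controls and 245 to 343 CPM in knockouts (log2 fold change 0.015, SE 0.12, edgeR adjusted p = 0.966). Vnn1, a pantetheinase and PPARA target, was at 83.5, 95.3, 106 and 131 CPM in control livers 1 to 4 and 126, 148, 148 and 156 CPM in knockout livers 1 to 4. Knockouts 2, 3 and 4 were above every control, and knockout 1 was below control 4 alone. Vnn1 had the smallest adjusted p of the 28 genes in edgeR (log2 fold change 0.48, SE 0.13, edgeR adjusted p = 0.105), and the DESeq2 adjusted p was 0.0349. Without control 4 the log2 fold change was 0.60 (edgeR adjusted p = 0.0447). Pdk4, the kinase that shuts down pyruvate dehydrogenase when fat is burned, was at 7.85, 13.9, 11.5 and 17.5 CPM in control livers 1 to 4 and 20.7, 12.3, 18.7 and 32.1 CPM in knockout livers 1 to 4. Knockouts 1, 3 and 4 were above every control and knockout 2 was within their range (log2 fold change 0.73, SE 0.32, edgeR adjusted p = 0.274).

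Among the controls, the same livers were often the highest or the lowest for these genes. Control 4 was the highest control for 22 of the 28 genes. Control 2 was the lowest for 14, among them Ppara, Fabp1, Acsl1, Cpt1a, Acadm, Hadh and Bdh1. Control 1 was the lowest for 10, which included Ehhadh, Acot1, Acot2, Cyp4a10, Cyp4a14, Pdk4 and Vnn1. The knockouts were more mixed. Knockouts 1 to 4 were the highest knockout for 3, 7, 10 and 8 genes and the lowest for 12, 4, 4 and 8. Such counts over all tested genes are not given here, so the counts for the 28 genes cannot be read against them. Over all 28 genes the summed level was 16321 to 23284 CPM in controls and 19660.3 to 20264 CPM in knockouts. These genes share the libraries, and Fabp1 alone makes up a large part of the sum.

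Other genes of the same pathways came from lists that are given beside the 28 as a description. The 44 further oxidation and ketogenesis genes were all tested. By edgeR 1 rose and 1 fell, where 2.06% of the 13303 genes passed. At an unadjusted edgeR p below 0.05 there were 9 (5 higher and 4 lower), or 20.5%, near the 18.5% among the 13303 genes. DESeq2's test was passed by 5 of the 44, and its background rate was 5.54%. Crot, the peroxisomal carnitine octanoyltransferase that exports shortened chains, rose 1.5-fold, at 481, 365, 423 and 491 CPM in control livers 1 to 4 and 632, 654, 634 and 717 CPM in knockout livers 1 to 4 (log2 fold change 0.58, SE 0.11, edgeR adjusted p = 0.0333). Every knockout was above every control. The call held without control 2 (adjusted p = 0.0384) and was lost in each of the other 7 fits that left out a liver, with adjusted p up to 0.0945. It held without both control 2 and knockout 4 (edgeR adjusted p = 0.0391) and on library size alone (edgeR adjusted p = 0.0194). Crot was also called on log2(TPM + 1) (limma-trend adjusted p = 0.0105) and by DESeq2 (adjusted p = 5.36e-05), but not under a replicate block (edgeR adjusted p = 0.0619). Pecr, a peroxisomal enoyl-CoA reductase that works in chain elongation more than in oxidation, fell 1.65-fold, at 163, 117, 117 and 112 CPM in control livers 1 to 4 and 90.5, 67.9, 87.6 and 63.9 CPM in knockout livers 1 to 4 (log2 fold change -0.72, SE 0.15, edgeR adjusted p = 0.0475). Every knockout was below every control, and the call was lost in all 8 fits that left out a liver, with adjusted p from 0.0636 to 0.131. It was also lost on log2(TPM + 1) (limma-trend adjusted p = 0.0528) and without both control 2 and knockout 4 (edgeR adjusted p = 0.0826). Pecr was called on library size alone (edgeR adjusted p = 0.0441), under a replicate block (edgeR adjusted p = 0.0226) and by DESeq2 (adjusted p = 9.04e-04).

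**Figure D5:**
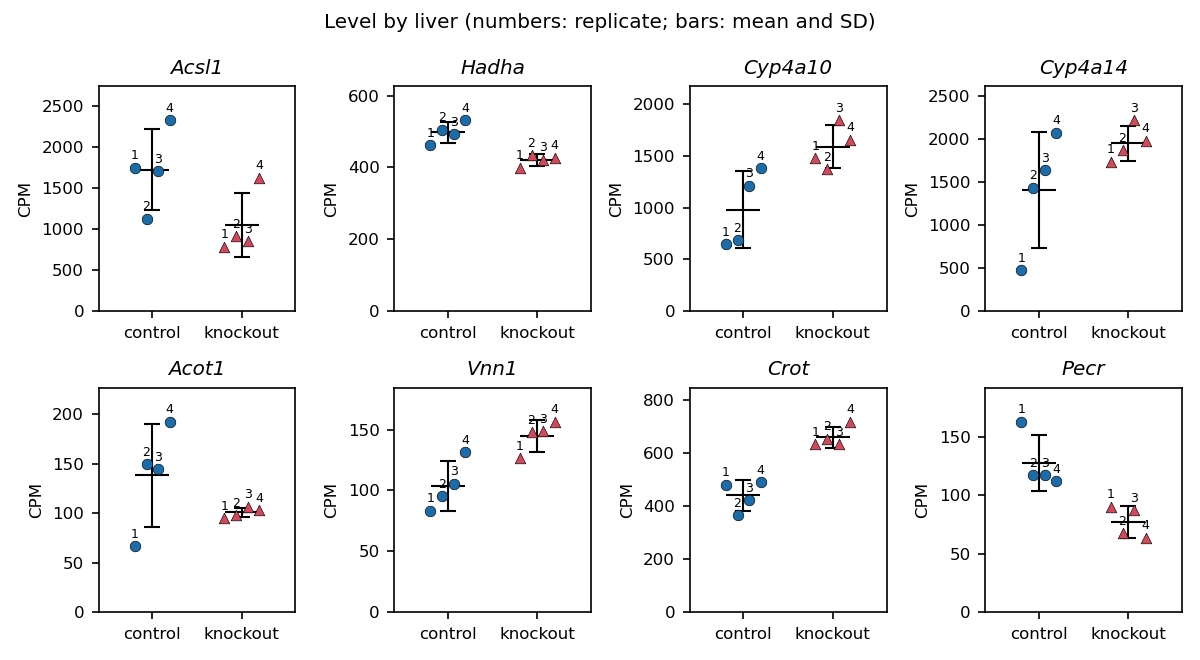
CPM by liver for 6 of the 28 genes and for Crot and Pecr, with the replicate number beside each point and the mean and SD of each group (n = 4). Axes start at 0. Knockout 4 stands above the other knockouts for Acsl1, and control 1 below the other controls for Cyp4a14 and Acot1. The groups are apart on this scale for Hadha, Crot and Pecr, but for Hadha they overlapped on TPM and on library size alone.

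Of 34 tested genes among 35 other PPARA targets and partners, none passed edgeR's test, against 2.06% of all tested genes. An unadjusted edgeR p below 0.05 was found for 7 (2 higher and 5 lower), or 20.6%, against 18.5% of all tested genes. DESeq2 called 4, against 5.54% of the genes it tested, and the median log2 fold change was -0.085. Mgll, monoacylglycerol lipase, and Ucp2, a mitochondrial carrier, had the smallest adjusted p. Mgll ranged over 290.3 to 432 CPM in controls and 232 to 289.8 CPM in knockouts (log2 fold change -0.51, SE 0.14, edgeR adjusted p = 0.0960), and was called without control 2 (edgeR adjusted p = 0.0320) and without both control 2 and knockout 4 (adjusted p = 0.0356). Ucp2 ranged over 29.1 to 61.0 CPM in controls and 70.2 to 132 CPM in knockouts (log2 fold change 1.04, SE 0.28, edgeR adjusted p = 0.112). Of 16 tested genes of fatty acid synthesis, the opposing pathway, edgeR called none, where 2.06% of all tested genes passed. At an unadjusted edgeR p below 0.05 there was 1, or 6.25%, against 18.5%. DESeq2's test was passed by 0, and its background rate was 5.54%. The interval of the difference lay within 1.5-fold either way for 3 of the 16, or 18.75%, against 55.5% of all tested genes. The lack of calls therefore does not show that these genes were unchanged. The summed level of the 17 synthesis genes ran from 5699 to 23152 CPM in controls and from 13491 to 32818 CPM in knockouts. Dgat2, which makes triglyceride, ranged over 508 to 654 CPM in controls and 354 to 525 CPM in knockouts (log2 fold change -0.33, SE 0.14, edgeR adjusted p = 0.251), and Me1, malic enzyme, over 169.9 to 370.2 CPM in controls and 245 to 707 CPM in knockouts (log2 fold change 0.69, SE 0.33, edgeR adjusted p = 0.308).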

How the data were processed

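Polyadenylated RNA of 8 livers was sequenced from stranded TruSeq libraries, per the labels' protocols. Per the submitters' processing notes, RSEM 1.2.22, Trimmomatic 0.36, DESeq2, STAR 2.5.1 and Picard 1.84 were used with build mm10. The sources used here do not state the strand setting or which annotation release was counted. The deposited files hold the authors' expected counts, which divide shared reads between genes, and the authors' TPM. All 55450 gene identifiers matched GENCODE M21, used for coordinates, and promoter sequences are from RefSeq on GRCm38.p6, the same build.

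Livers were grouped by title, 4 per genotype; the labels give no batch and do not say that each liver is a separate animal, so p-values measure the spread between these samples, which may be technical. No pair in a group agreed within sampling noise. Expected counts, after rounding, went into edgeR 4.0.16 in R 4.3.3 (filterByExpr with a minimum count of 10 and total of 15, TMM, robust quasi-likelihood test, two-sided, Benjamini-Hochberg adjustment over 13303 genes, threshold 0.05). A SE is the fold change over the root of F, and 95% intervals use the test's degrees of freedom. The 28 genes had from 8 (Fgf21) to 137603 (Fabp1) counts per liver. Alternatives were no filter, library size alone, RLE factors, 1 CPM in 4 livers, DESeq2 1.42.0, limma-trend (3.58.1) on log2(TPM + 1) and log2(TPM + 0.1), a non-robust fit, a replicate block, and livers left out. Steps were tested on simulated data. The members, the lists and the removal of control 2 with knockout 4 were chosen with earlier results of these data known. Named genes outside the 28 were the called genes of each pathway list, at most 6, or else the 2 with the smallest adjusted p, and Cebpa; Cyp4a31 and Cyp4a32 were chosen after their values were seen. Some results of the pathway lists are not reported here. Shared runs are the 50-base words of a gene's GENCODE transcripts found in another gene's. Figures were drawn with matplotlib 3.10.9.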

Additional observations from a re-analysis of the deposited data

Results flagged for a closer look

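Of the 56 sets of 4 livers (28 genes in 2 groups), 2 held a liver farther from the others than Dixon's 95% limit, where chance gives about 1 in 20. Acsl1 was at 1627 CPM in knockout 4, against 783 to 914 CPM in the other knockouts. Etfdh was at 267 CPM in control 2, against 339 to 352 CPM in the other controls. Both livers are those that stood apart over all tested genes, and the part of that in these values was not tested.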

How the results depend on the processing

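The number of the 28 genes called was 0 with RLE factors, library size alone, either other filter, no robust estimation, both TPM fits and the replicate block. It was 2 with DESeq2 (Hadha and Vnn1), 1 without control 2 and knockout 4 (Acsl1) and 0 to 1 with 1 liver left out: Acot1 without control 1, Vnn1 without control 4 and Acsl1 without knockout 4. Over all genes 274 were called, 837 with DESeq2, 431 without control 2 and knockout 4, and 108 to 372 with 1 liver left out, the lowest without knockout 2. The split of higher to lower calls was 113 to 161, but 161 to 115 with library size alone and 151 to 86 on log2(TPM + 1). The replicate block gave 176 calls over all genes. Same-numbered livers deviated together at correlations of 0.21, 0.0090, -0.024, -0.067, and 2 of 8 livers correlated best with their own number. These values gave no sign that same numbers mark pairs, but with 4 livers per group they cannot exclude pairing. Under the block Crot had an edgeR adjusted p of 0.0619 and Pecr one of 0.0226.

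Of 504 refits of the 28 log2 fold changes, 471 kept direction and side of the threshold, 6 gained a call and 27 changed sign, all in 9 genes near 0; the cause was not tested. With library size alone Fabp1 was at 0.017 and Hadhb at 4.67e-04. On log2(TPM + 1) and log2(TPM + 0.1), Fabp1 was at 0.059 and 0.059, Cpt1a at 0.011 and 0.011 and Hadhb at 0.036 and 0.036. Without control 2 and knockout 4, Slc25a20 was at -0.013 and Etfdh at -0.083. With 1 liver left out, log2 fold changes ran from -0.039 to 0.12 for Ppara, -0.17 to 0.045 for Fabp1, -0.045 to 0.048 for Slc25a20, -0.016 to 0.042 for Acads, -0.041 to 0.071 for Decr1, -0.062 to 0.054 for Etfdh and -0.065 to 0.094 for Bdh1. The log2 ratio of group means of the sums ran from -0.56 to -0.14 for Acot1 with Acot2, 0.33 to 0.80 for Cyp4a10 with Cyp4a14 and 0.51 to 0.87 for Cyp4a10 with Cyp4a31 and Cyp4a32. On summed TPM the last pair were 0.69 and 0.76, and the last was 0.73 on library size alone, each at exact permutation p = 0.0286. The differences in log2 ratio ran from -0.11 to 0.40 for Cyp4a10 over Cyp4a14, -0.13 to 0.089 for Acaa1a over Acaa1b and -0.032 to 0.12 for Cpt1a over Cpt2. Fgf21 had the fewest counts, and its level spanned 12.4-fold over the knockouts.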
